A study of Homo sapiens with 3 samples.

Results

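Antisense long non-coding RNAs with symbols ending in -AS1 were examined in C4-2, a prostate adenocarcinoma cell line derived from LNCaP. The genes were those of GENCODE type lncRNA with this ending and at least 100 reads in each of the 3 libraries, and each was set against the gene it is named after, called its namesake here. The genes were thus chosen by their read counts. The rule gave 253 of 1627 annotated AS1 lncRNAs, out of 58302 genes counted, and 1 further gene was left out by the rule. For that reason their levels and their differences from the namesakes are given as a description, with no test. The 3 libraries were labelled as replicates of wild-type C4-2 and no treatment was named, so they form 1 group. Neuroendocrine lines and a neuropilin-2 knockdown, which the series also describes, were not analysed here. Separate cultures are not stated for these replicates, so the spread between libraries is possibly only technical. The p-values below set that spread against counting error alone.

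An AS1 gene is transcribed from the strand opposite to a gene it overlaps or adjoins and takes that gene's symbol plus -AS1. The symbol records position and says nothing of function. Some of these RNAs arise from promoters that fire in both directions, some run into the namesake from its far end, and some lie within its introns. A few are known to act on their namesake in cis and others act elsewhere in the cell, while most have no established role.

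The libraries held 47513470 to 51200272 reads assigned to genes. The luminal prostate markers KLK2, HOXB13 and KLK3 were at 174.5, 327 and 1440 mean TPM. The basal markers TP63 and KRT5 and the stromal marker COL1A2 had 0 reads in all libraries, and the blood marker PTPRC had 0, 2 and 0 reads. TPM is a read count divided by exon length and scaled to the library. Values below are mean TPM ± SD over the 3 libraries (n = 3) unless stated otherwise. A difference is AS1 minus namesake on the log2(TPM + 0.1) scale, which understates differences where a gene is low.

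The AS1 genes start close to coding genes in many cases, so the DNA between the paired start sites is shown first for pairs that do not overlap. Sequences are from hg38, 5′ to 3′ on the strand of the AS1 gene. The AS1 gene begins beyond the last base, and the other gene begins beyond the first base on the opposite strand. Bases annotated as untranslated region were left out and the longest remaining piece is shown, so a stretch need not reach either start. Capitals mark motifs found by letter match on either strand, and neighbouring matches may overlap. The GC box, bound by SP-family factors, was searched as GGGCGG. The box bound by NF-Y was searched as CCAAT. The core of ETS-family factors was searched as CCGGAAG. The motif of NRF1, a regulator of mitochondrial and growth genes, was searched as GCGC followed by any base and then TGCGC. The first set shows pairs in which the facing gene is the namesake.
MNX1-AS1 and MNX1, chr7:157010664-157010804, plus strand: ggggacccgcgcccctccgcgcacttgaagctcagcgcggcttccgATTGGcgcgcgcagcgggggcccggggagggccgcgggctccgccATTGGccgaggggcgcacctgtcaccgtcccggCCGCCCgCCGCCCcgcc
URB1-AS1 and URB1, chr21:32393027-32393129, plus strand: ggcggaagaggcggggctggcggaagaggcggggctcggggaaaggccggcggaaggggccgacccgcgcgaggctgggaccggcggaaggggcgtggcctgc
RTCA-AS1 and RTCA, chr1:100266121-100266206, minus strand: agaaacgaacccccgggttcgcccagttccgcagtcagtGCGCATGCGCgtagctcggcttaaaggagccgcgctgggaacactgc
UBAC2-AS1 and UBAC2, chr13:99200711-99200773, minus strand: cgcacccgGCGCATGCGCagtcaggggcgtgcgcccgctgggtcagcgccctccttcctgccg
SAP30L-AS1 and SAP30L, chr5:154445851-154445956, minus strand: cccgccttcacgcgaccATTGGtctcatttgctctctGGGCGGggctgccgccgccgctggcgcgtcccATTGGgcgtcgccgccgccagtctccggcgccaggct
SPATA3-AS1 and SPATA3, chr2:230996033-230996120, minus strand: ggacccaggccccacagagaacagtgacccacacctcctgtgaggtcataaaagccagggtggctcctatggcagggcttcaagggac
The SPATA3 stretch had 0 CpG dinucleotides by its CpG ratio of 0, whereas that ratio (observed over expected CpG) was 0.955 to 1.14 in the other 5.

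The second set shows AS1 genes whose start faces a coding gene other than the namesake. These RNAs carry the name of the gene they run towards or into, not of the gene they start beside.
ARRDC1-AS1 and EHMT1, chr9:137618907-137618962, minus strand: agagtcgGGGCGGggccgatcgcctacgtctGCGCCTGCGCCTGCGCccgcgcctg
NIFK-AS1 and CLASP1, chr2:121649588-121649649, plus strand: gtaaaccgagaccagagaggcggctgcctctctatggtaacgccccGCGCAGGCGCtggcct
MRPL20-AS1 and CCNL2, chr1:1399336-1399521, plus strand: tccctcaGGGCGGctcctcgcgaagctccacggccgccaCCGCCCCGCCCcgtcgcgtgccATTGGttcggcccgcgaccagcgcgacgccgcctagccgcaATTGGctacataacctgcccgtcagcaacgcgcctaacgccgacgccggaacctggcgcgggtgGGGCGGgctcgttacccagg
MZF1-AS1 and UBE2M, chr19:58558961-58559128, plus strand: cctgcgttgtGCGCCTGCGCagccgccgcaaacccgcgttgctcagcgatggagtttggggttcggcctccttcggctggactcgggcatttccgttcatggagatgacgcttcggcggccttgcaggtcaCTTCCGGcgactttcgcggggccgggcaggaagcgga
PXN-AS1 and RPLP0, chr12:120201236-120201290, plus strand: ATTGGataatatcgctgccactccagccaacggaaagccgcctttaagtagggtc

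In all, 28 such stretches of at least 30 bases were read, 11 facing the namesake and 17 facing another coding gene. Gaps above a set length were not read and some chromosomes were left out, so these are not all the facing pairs. A GC box was present in 3 of the 11 and 11 of the 17, a CCAAT box in 2 and 8, and the NRF1 motif in 2 and 4. The TATA box (TATAAA) was found in none of the 28. A match is a description of the letters and does not show that a factor binds.

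Across the genes, most AS1 RNAs were lower than their namesakes. The AS1 genes had a median of 6.46 TPM, a middle range of 3.54 to 11.96 and extremes of 0.564 and 178. The namesakes had a median of 21.4 TPM, a middle range of 6.02 to 50.4 and a maximum of 901. Of the 253 genes, 252 had a namesake that could be matched, 248 of them protein-coding, and KRTAP5-AS1 had none. The median difference over the 252 pairs was -1.43 ± 0.025, that is 2.696-fold lower, and it was -1.43, -1.46 and -1.41 in replicates 1, 2 and 3. The AS1 gene was below its namesake in 3 of 3 libraries in 181 pairs and above it in 59, and the libraries differed in sign in 12. The rule of 100 reads applied to the AS1 gene and not to the namesake, so pairs with a silent AS1 gene are not among these. The 59 pairs above are 23.4% of the AS1 pairs. By the same measure the lncRNA was above its namesake in 21 of 130 pairs of divergent transcripts named -DT (16.2%). It was above in 2 of 19 pairs named -AS or -AS2 to -AS9 (10.5%). Among the AS1 pairs that are head-to-head, as defined below, the AS1 gene was above in 20 of 126 (15.9%), near the -DT share. These shares were not tested against each other.

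**Figure D1:**
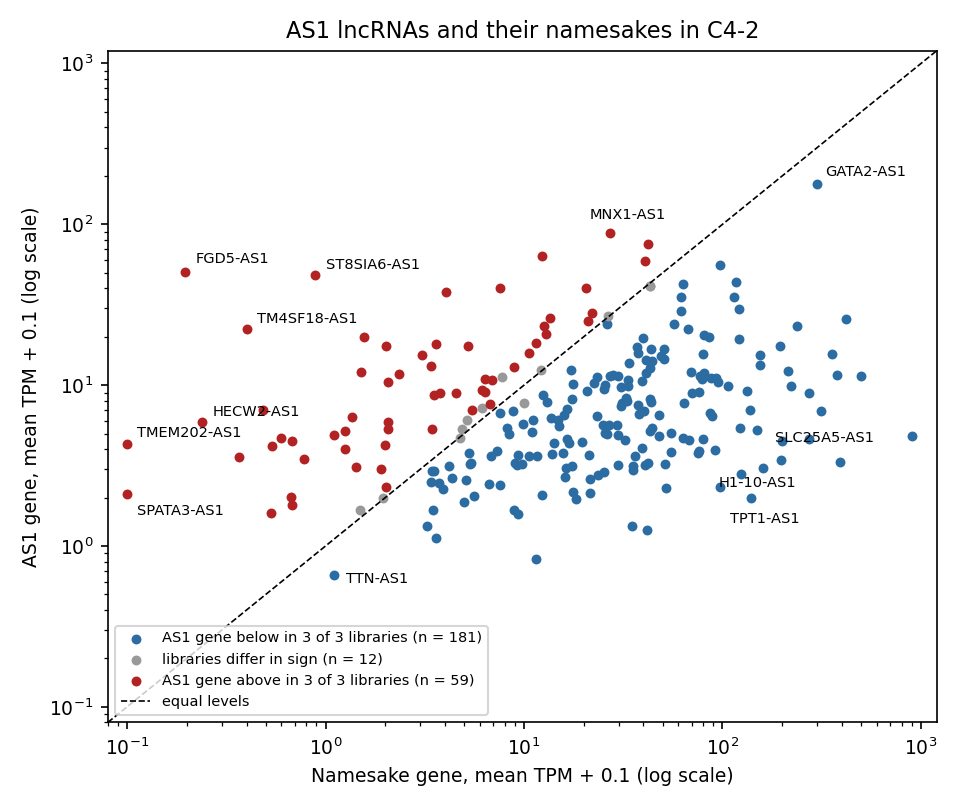
Mean TPM + 0.1 of each AS1 gene (vertical, log scale) against its namesake (horizontal, log scale) for 252 pairs; points are pairs, coloured by whether the AS1 gene was above or below in all 3 libraries, and the dashed line marks equal levels. The 181 pairs below the line span namesake levels from about 1 TPM up to 901 TPM, and all 15 pairs with a namesake under 1 TPM lie above it.

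Pairs can also be split by the level of the namesake, which is itself a term of the difference. All 15 namesakes under 1 TPM lay below their AS1 gene, and none of the 30 namesakes at 100 TPM or more did. Both counts follow largely from the levels of the AS1 genes. The minimum of 100 reads keeps the AS1 gene from being silent, and 251 of the 253 were at 1 TPM or more. Only 7 of the 253 reached 50 TPM, so few could exceed a namesake at 100 TPM. Among the 59 AS1 genes above, the median was 9.27 TPM against 2.24 TPM for the namesakes, and 12 of these namesakes still reached 10 TPM. Among the 181 below, the medians were 5.59 TPM and 35.0 TPM. Levels of AS1 gene and namesake had a Spearman correlation of 0.305 across the 252 pairs, which share libraries and often exon bases.

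GATA2-AS1 was the most abundant AS1 RNA. Its levels were 180, 178 and 177 TPM in replicates 1, 2 and 3, and those of GATA2, a zinc finger transcription factor, were 291, 297 and 306 TPM. The 2 genes start 3973 bases apart on opposite strands, and GATA2-AS1 (chr3:128489212-128502348, plus strand, GRCh38) shares no exon bases with any gene. Groups of values did not overlap, and the difference was -0.74 ± 0.048.

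MNX1-AS1, next in level, exceeded its namesake in every library. It was at 93.8, 85.3 and 85.2 TPM, against 25.4, 26.9 and 28.7 TPM for MNX1, a homeobox factor of motor neurons and pancreas. The lowest MNX1-AS1 library lay well above the highest MNX1 library. URB1-AS1 measured 68.4, 76.1 and 82.6 TPM against 42.0, 43.0 and 41.8 TPM for URB1, a ribosome biogenesis protein. KMT2E-AS1 was at 52.1, 58.1 and 67.1 TPM and KMT2E, a chromatin regulator, at 40.1, 42.8 and 38.4 TPM. All 3 pairs start within 154 bases of each other, and for each the AS1 gene was the higher of the pair in 3 of 3 libraries per length. On counts not divided by length (CPM) the order was the reverse, with differences of -0.31, -2.94 and -3.10 for MNX1-AS1, URB1-AS1 and KMT2E-AS1.

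VPS9D1-AS1 lies within VPS9D1 and was higher than it, at 66.5, 60.1 and 64.9 TPM against 12.4, 12.8 and 11.4 TPM. The 2 share 518 exon bases, 29.6% of the AS1 exon length, and reads there were taken as counted for neither. OIP5-AS1, known in other species as cyrano, had more reads than any other of these RNAs, 8845, 8794 and 7861. Over its 12673 exon bases this gave 41.6, 45.1 and 37.2 TPM, which overlapped the values of 43.0 ± 2.11 TPM of OIP5, a centromere protein. PRR11-AS1 and PRR11, a cell cycle gene, overlapped likewise, at 41.5 ± 5.91 and 43.2 ± 2.50 TPM. Both near-equal levels depend on the length used. With only exon bases of no other gene as length, the differences were -0.70 ± 0.20 for OIP5-AS1 and 0.37 ± 0.22 for PRR11-AS1.

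**Figure D2:**
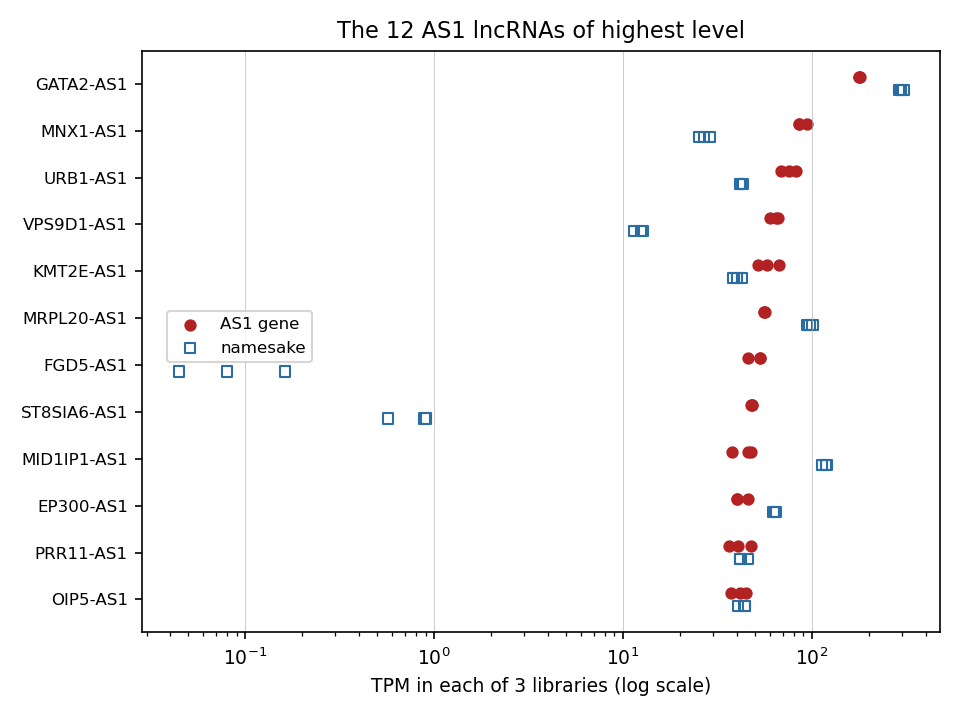
TPM on a log scale in each of the 3 libraries for the 12 AS1 genes of highest mean level (filled circles) and their namesakes (open squares). FGD5 and ST8SIA6 lie far to the left of their AS1 genes, GATA2 lies to the right of GATA2-AS1, and the points of OIP5-AS1 and PRR11-AS1 overlap those of their namesakes.

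Some AS1 RNAs were abundant where the namesake was nearly silent. FGD5-AS1 (chr3:14920347-14948424, minus strand) was at 53.1, 52.9 and 46.1 TPM, while FGD5, an exchange factor for CDC42 best known from endothelium, had 22, 10 and 6 reads, or 0.162, 0.080 and 0.044 TPM. Its difference of 8.06 ± 0.35 was the highest of the 252 pairs. FGD5-AS1 starts 137571 bases from the FGD5 start and 840 bases from that of NR2C2, an orphan nuclear receptor, which was at 18.8, 19.7 and 19.5 TPM. The levels of the start neighbour thus lay between those of FGD5 and FGD5-AS1.

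ST8SIA6-AS1 measured 48.3, 48.1 and 47.8 TPM and lies inside ST8SIA6, a sialyltransferase gene at 0.907, 0.569 and 0.889 TPM. The difference was 5.79 ± 0.34, with no exon bases shared. TM4SF18-AS1 was at 24.97, 18.97 and 22.61 TPM against 0.412, 0.116 and 0.374 TPM for TM4SF18, a transmembrane protein gene. HECW2-AS1, inside the ubiquitin ligase gene HECW2, was at 6.89, 6.38 and 4.17 TPM against 0.080, 0.205 and 0.132 TPM. In these 3 pairs, too, no library of the namesake reached the lowest library of the AS1 gene.

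TMEM202 and SPATA3 had 0 reads in all libraries. A count of 0 allows up to 3 reads per library, and against that limit TMEM202-AS1 (4.61, 3.71 and 4.37 TPM) was at least 19.3-fold higher and SPATA3-AS1 (1.95, 2.08 and 1.95 TPM) at least 22.01-fold higher. These limits cover counting error only and take each read as independent. If both mates of a fragment were counted, the limit in reads would be higher and both folds lower. TMEM202-AS1 starts 842 bases from ARIH1, a ubiquitin ligase gene at 11.97 ± 0.871 TPM, whereas the SPATA3-AS1 start faces the SPATA3 start 89 bases away across the sequence shown above. SPATA3, a testis gene, was thus without reads although its head-to-head partner had 121, 118 and 120.

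At the other end were AS1 RNAs of highly expressed genes. SLC25A5, the mitochondrial ADP/ATP carrier, was at 899, 928 and 877 TPM, and SLC25A5-AS1 was at 4.72, 5.19 and 4.24 TPM, a difference of -7.55 ± 0.10. The linker histone gene H1-10 was at 389 ± 1.35 TPM and H1-10-AS1 at 3.22 ± 0.516 TPM. TPT1, a translationally controlled protein, was at 139 ± 12.3 TPM and TPT1-AS1 at 1.89 ± 0.090 TPM, although their starts are only 25 bases apart. ARHGEF26, GNAS (the stimulatory G protein subunit) and PCBP1 (an RNA-binding protein) were also 52.1- to 58.9-fold above their AS1 genes on the log2(TPM + 0.1) scale. PCBP1 lies inside PCBP1-AS1 and shares 52.2% of its exon bases with other genes, so part of its reads was possibly not counted.

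The position of the pair on the chromosome went with different medians. In 126 pairs the genes were head-to-head, meaning that their starts face away from each other or their first parts overlap. These AS1 genes had a median of 6.10 TPM, the namesakes 26.9 TPM, the median difference was -1.72 ± 0.040, and 20 AS1 genes were above. In 56 tail-to-tail pairs, in which the RNAs run into each other, the median difference was -1.11 ± 0.054, with 14 AS1 genes above. For 46 AS1 genes inside the namesake it was -1.60 ± 0.079, again with 14 above. For 21 AS1 genes that contain the namesake it was 0.25 ± 0.32, and 10 were above and 10 below. The other 3 pairs did not overlap. No test was made between these groups, and their members differ in exon length, with a median of 1670 bases for AS1 genes inside the namesake and 4800 bases for those that contain it.

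**Figure D3:**
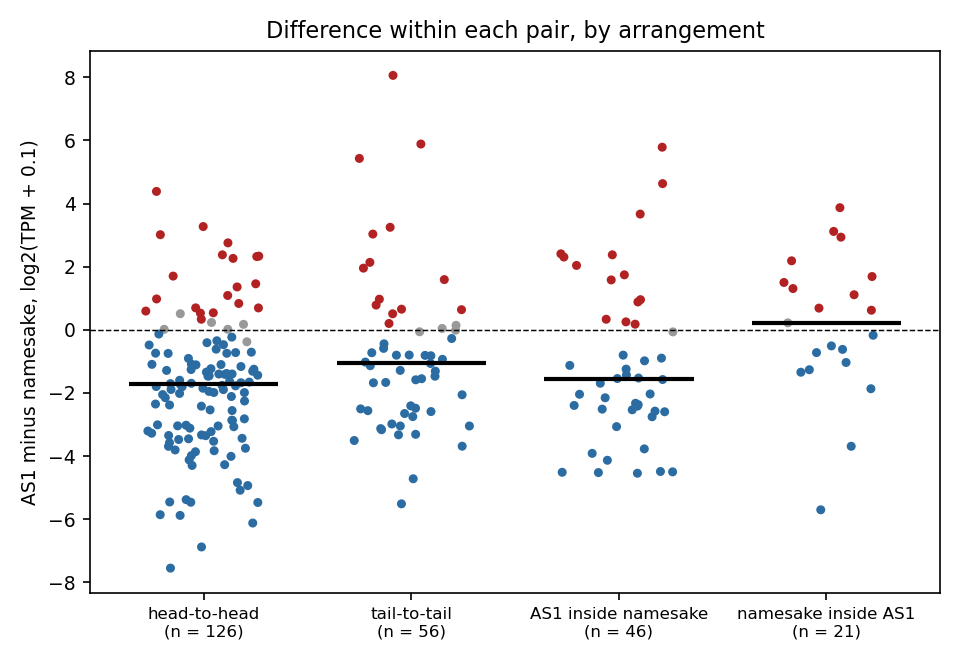
Difference AS1 minus namesake in log2(TPM + 0.1) for each pair (points, same colours as in the plot of pair levels) by arrangement; black bars are medians and points are spread sideways only to be seen. The median is -1.72 in head-to-head pairs and 0.25 where the namesake lies inside the AS1 gene, and each arrangement holds pairs on both sides of 0.

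Counting bears on these pairs. The file headers name no strand option, so strand was taken as not used. Reads over exons of more than 1 gene were likewise taken as dropped. Of the 253 AS1 genes, 206 share exon bases with some gene and 191 with the namesake, by a median of 279 bases; 47 share none. Of 8 namesakes with over 50% of exon bases shared, 5 were below their AS1 gene in every library: MIF, C10orf95, CCDC183, GJD3 and A1BG. These 5 were chosen after their values were seen. The median share of exon bases shared was 5.69% for namesakes below their AS1 gene in every library and 5.21% for those above it. MIF, a cytokine, was listed at 6.28 TPM with 62.0% of its bases shared. Among the 32 pairs in which neither gene shares exon bases with any gene, the median difference was -1.25 ± 0.014 and 10 AS1 genes were above (31.2%). Without strand, reads from introns of the namesake and reads of an AS1 gene inside it cannot be told apart. The same can hold where the gene bodies overlap in another arrangement, as in 111 of the 126 head-to-head pairs. The 17 AS1 genes inside the namesake that share no exon bases with it had a median of 10.99 TPM, against 20.9 TPM for their namesakes, and 7 were above. NUTM2A-AS1, NUTM2B-AS1 and DHRS4-AS1 belong to duplicated loci, and since reads mapping to several places were dropped their values are uncertain.

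By start site the AS1 genes fell into 3 classes. The start of the namesake was within 1000 bases in 87, the start of another coding gene was that near in 40, and no coding start was that near in 126. AS1 genes were above the namesake in 13 of 87, 10 of 39 and 36 of 126 pairs. In the second class the start neighbours had a median of 20.8 TPM and the namesakes 8.82 TPM, against 5.97 TPM for the AS1 genes. The level of the AS1 gene was closer to its start neighbour than to its namesake in 17 of the 39.

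MRPL20-AS1 was one whose values overlapped those of the neighbour. It measured 55.5, 55.8 and 56.3 TPM against 54.5, 57.6 and 54.3 TPM for CCNL2, a cyclin L gene whose start is 194 bases away. MRPL20, a mitochondrial ribosome protein gene, was higher, at 97.2, 94.1 and 101 TPM. ARRDC1-AS1 was at 35.0 ± 1.70 TPM, between EHMT1, a histone methyltransferase gene 57 bases away at 22.7 TPM, and ARRDC1, an arrestin-domain gene, at 61.4 ± 1.66 TPM. PXN-AS1 was low, at 5.28, 4.58 and 5.44 TPM, although its start is 56 bases from that of RPLP0, a ribosomal protein gene at 1524, 1418 and 1454 TPM. MZF1-AS1 was at 6.34 ± 0.465 TPM beside UBE2M, the NEDD8-conjugating enzyme gene, at 315, 296 and 323 TPM. Apart from MRPL20-AS1, these pairs were chosen after their values were seen.

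RefSeq promoter windows (GRCh38.p14, 250 bases before to 50 after the start) were matched for 198 of the 253 AS1 genes, and all 195 windows compared with hg38 had the same letters. A CpG ratio above 0.6 was found in 72.2% of the 198, in 48.9% of all 27326 promoters of the table, in 85.1% of coding genes with at least 100 reads and in 71.5% of other lncRNAs at that depth. The share was 84.9% for AS1 genes with the namesake start near, 94.1% with another coding start near and 53.8% with none near. The NRF1 motif was in 21.9%, 23.5% and 5.49% of these classes and in 14.6% of all AS1 windows. It was in 14.4% of other lncRNAs and 12.5% of coding genes with at least 100 reads, and in 6.28% of all promoters. A GC box was in 63.6% of AS1 windows, 63.0% of those of other lncRNAs and 71.6% of those of coding genes with at least 100 reads, and in 44.6% of all windows. A TATA box was in 4.04%, 9.51%, 5.06% and 11.9% of these sets. No TATA box was found in the 73 windows with the namesake start near. The windows of a near pair overlap in part with that of the other gene, so they are not independent of it.

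**Figure D4:**
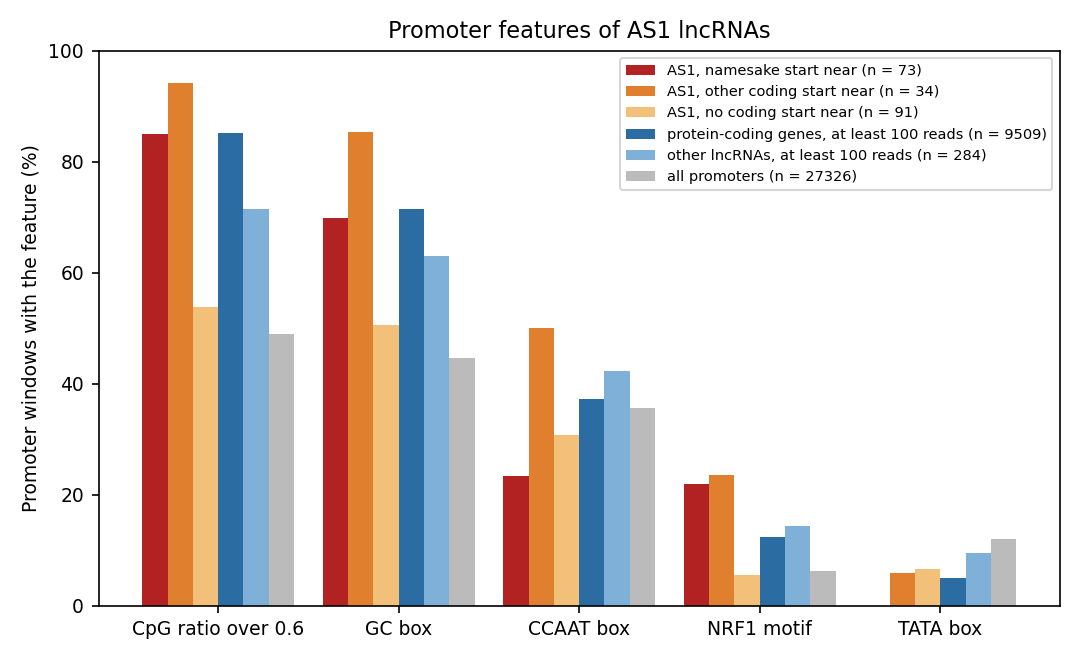
Share of promoter windows (percent, from 0) with a CpG ratio above 0.6 or with a motif on either strand, for AS1 genes in 3 start classes, coding genes and other lncRNAs with at least 100 reads, and all promoters; the number of windows stands in the legend. The AS1 genes with no coding start near have a CpG share of 53.8%, against 84.9% and 94.1% in the other AS1 classes, and the NRF1 share is 5.49% against 21.9% and 23.5%.

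Most AS1 genes were not called as varying between libraries. A chi-square test of the 3 counts against TMM library sizes, with Benjamini-Hochberg adjustment over all 21039 genes with at least 10 reads in every library, called 93 of 253 at 0.05 (36.8%). The background was 46.1% of all genes tested, 53.8% of genes with at least 100 reads and 36.1% of other lncRNAs with at least 100 reads, so the AS1 share was near that of other lncRNAs. The test sets the spread against counting error alone, so any further spread between libraries counts towards a call; the common biological coefficient of variation over all genes was 0.074. Without replicate 1, 2 or 3 the counts called were 54, 49 and 55 (21.3%, 19.4% and 21.7%, against 32.7%, 23.8% and 23.8% of all genes tested). Low counts were mostly even numbers: among genes with 1 to 20 reads, 78.6%, 75.1% and 81.6% of counts were even in replicates 1, 2 and 3. Among the AS1 genes themselves, all with higher counts, the shares were 53.4%, 47.8% and 47.04%. If both mates of a fragment were counted, the test statistic is too large. Divided by 2, it called 22 AS1 genes (8.70%), against 17.6% of all genes, 24.3% of genes with at least 100 reads and 9.78% of other lncRNAs.

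PRKAG2-AS1 had the widest span of the 253. It had 241, 133 and 268 reads, or 12.3, 7.43 and 13.8 TPM, with replicate 2 low and a 1.94-fold span of normalized counts (adjusted p = 1.25e-08 as computed and 0.00049 with the statistic divided by 2). PRKAG2, a regulatory subunit of the AMP-activated kinase, was highest in replicate 2, at 6.93, 8.85 and 7.06 TPM. The 2 starts are 83 bases apart. FOXP4-AS1 followed, with 172, 230 and 281 reads and replicate 1 low (adjusted p = 3.63e-06 and 0.0063 divided by 2), while FOXP4, a forkhead factor, was at 50.7, 47.8 and 48.0 TPM. NDUFV2-AS1, ARHGEF4-AS1, KIF9-AS1 and MELTF-AS1 spanned 1.65-, 1.61-, 1.59- and 1.58-fold, with adjusted p from 0.026 to 0.049 with the statistic divided by 2. HECW2-AS1 and SGMS1-AS1, at 1.598- and 1.636-fold, had adjusted p of 0.074 and 0.062 on that scale.

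Among the AS1 RNAs of lowest SD, and named for it, ST8SIA6-AS1, MRPL20-AS1, GATA2-AS1, ZNF667-AS1 and PITX1-AS1 spanned at most 1.06-fold. Depth differs widely among these, from 278 reads in the lowest PITX1-AS1 library to 6883 in the highest GATA2-AS1 library.

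**Figure D5:**
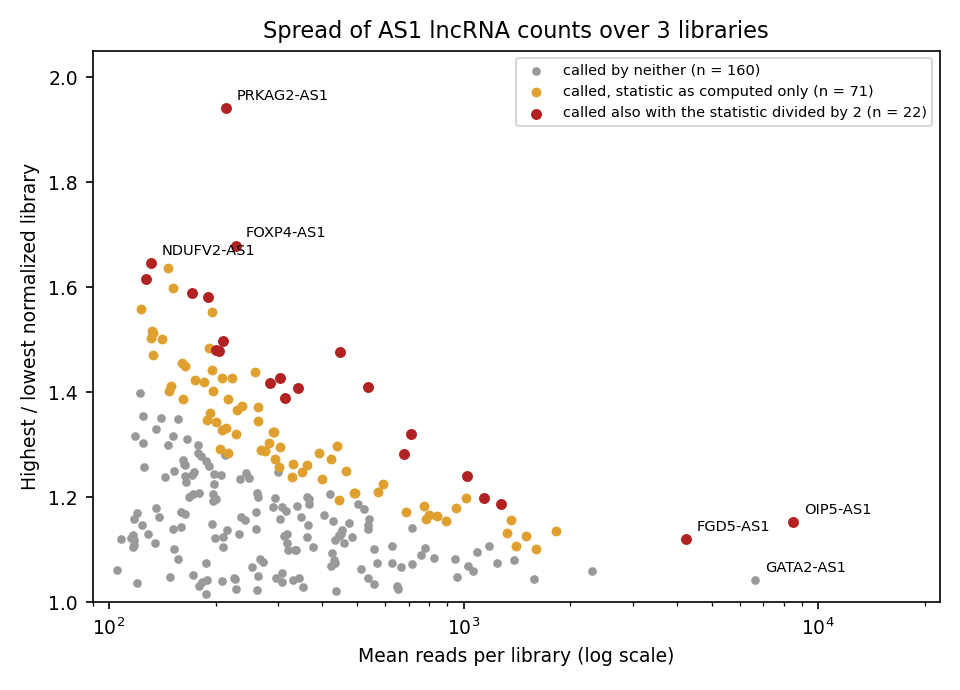
Ratio of the highest to the lowest normalized library (vertical) against mean reads per library (horizontal, log scale) for the 253 AS1 genes; colours show which were called as varying by the chi-square test as computed and with its statistic divided by 2. PRKAG2-AS1 stands highest at 1.94, and OIP5-AS1 and FGD5-AS1 were called at spans of 1.15 and 1.12.

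The ratio of AS1 to namesake reads was tested over the libraries by a chi-square test of the 2 by 3 table, with Benjamini-Hochberg adjustment over 1171 pairs of antisense, divergent or intronic lncRNAs and their namesakes. It called 82 of 248 AS1 pairs, or 33.1%, beside 31.2% of all pairs, and 36, 49 and 49 without replicate 1, 2 or 3. With the statistic divided by 2, it called 5 of 248, beside 1.96% of all pairs. The 5 were PRKAG2-AS1 (adjusted p = 0.00017), ZNF213-AS1 (0.0028), KMT2E-AS1 (0.018), FOXP4-AS1 (0.019) and OIP5-AS1 (0.038). For ZNF213-AS1 the reads were 597, 720 and 726 and those of ZNF213, a zinc finger gene, 2050, 1661 and 1768, so replicate 1 had the lowest AS1 and the highest namesake count. GABPB1-AS1, at 1394, 1317 and 1496 reads against 2046, 2206 and 1946 for GABPB1, an ETS partner protein gene, had an adjusted p of 0.056 on that scale. Most pairs thus kept a ratio that could not be told from constant at this depth.

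A list of 17 AS1 RNAs that have been discussed in prostate cancer held 10 of the 253. VPS9D1-AS1, FGD5-AS1 and OIP5-AS1 stood among the 12 most abundant, as given above. FOXP4-AS1 was at 10.97, 15.99 and 18.02 TPM. GAS6-AS1 was at 10.6, 10.5 and 10.7 TPM, above the 5.96, 7.43 and 7.05 TPM of GAS6, a ligand of TAM receptors. MCM3AP-AS1 was at 7.72 ± 0.871, TMPO-AS1 at 7.67 ± 0.655 and NNT-AS1 at 3.20 ± 0.620 TPM, each below its namesake in 3 of 3 libraries. ZEB1-AS1 was at 4.14, 3.37 and 2.89 TPM, while ZEB1, a repressor of the epithelial state, was at 0.337, 0.233 and 0.235 TPM, a difference of 3.27 ± 0.11, or 1.81 with a pseudocount of 1 TPM. TTN-AS1 was the lowest of all 253 at 0.564 ± 0.021 TPM, and over 50% of its exon bases (55.4%) are shared.

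The other 7 did not reach 100 reads in each library. AFAP1-AS1 had 58, 81 and 102 reads and HOXC-AS1 70, 53 and 52. HOXB-AS1, PRKCQ-AS1, DLX6-AS1, LEF1-AS1 and HAND2-AS1 had 0 to 16 reads in every library. These are levels in 1 line, and without other lines no statement on cancer follows from them.

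Around the minimum of 100 reads, RARA-AS1 (115, 109 and 100 reads), RUVBL1-AS1 (113, 100 and 103) and SLC5A4-AS1 (144, 101 and 154) were just inside. Just outside were ATP2A1-AS1 (118, 99 and 131), ECI1-AS1 (99, 147 and 134), ZSCAN16-AS1 (109, 99 and 126) and DLGAP1-AS1 (114, 98 and 110). A further 510 AS1 genes had a lowest library of 10 to 99 reads, and 365 had no reads at all. Together the 253 genes took 0.233% of all reads and 12.7% of lncRNA reads.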

How the data were processed

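Total RNA of 3 C4-2 libraries was depleted of ribosomal RNA and built with a directional kit, per the labels' protocols. The deposited values were raw read counts per gene from featureCounts (Subread 1.6.3) on Ensembl release 90, per the file headers, whose options name neither strand, pairs nor multi-mapping reads. Counting without strand, and without reads of several genes or places, was therefore assumed. The submitters' processing notes also name FastQC, Trim Galore, STAR 2.7.0f and DESeq2 1.26.0. Whether both ends were read is not given in the sources used here.

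Names and types came from GENCODE release 44 by Ensembl identifier (57532 of 58302 matched). The file's length column equalled the merged exon length in all 58302 genes, and TPM was computed with it. TMM factors came from edgeR 4.0.16 in R 4.3.3, and size factors from DESeq2 1.42.0. Tests ran in scipy 1.17.1 with pandas 2.3.3 and numpy 2.4.6 under Python 3.11.15, and figures came from matplotlib 3.10.9. Variation was tested by chi-square tests with Benjamini-Hochberg adjustment (threshold 0.05). A check on simulated counts drew counting error alone. It therefore does not cover further spread between libraries or mates counted one by one. Libraries held 47513470 to 51200272 reads. Intervals and limits cover counting error only.

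Genes were named by rule: the 12 of highest TPM, the 6 highest and 6 lowest differences, the 6 lowest and 6 highest SDs, up to 8 called for variation and up to 6 for ratio, the 4 on either side of the read minimum, and the prostate list. Genes shown for their sequence, start neighbour or shared bases were chosen after their values were seen. The members and lists were chosen with earlier results of these data known. Some items that these rules name are not reported here.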

Additional observations from a re-analysis of the deposited data

How the results depend on the processing

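No paired analysis was possible because all 3 libraries belong to 1 group. The median difference stayed negative in every alternative. It was -1.28 with a pseudocount of 1, -1.38 with exon bases of no other gene, -2.75 with CPM in place of TPM, -1.25 over pairs sharing no exon bases, -1.93 at a minimum of 50 reads and -1.24 at 200. In the same order, the median AS1 level on the log2 scale (2.72 as reported) was 2.90, 2.90, 2.44, 3.24, 2.30 and 3.20. The pairs with the AS1 gene above numbered 10 among those sharing no exon bases and 39 at 200 reads, where fewer pairs entered. A minimum of 50 reads gave 405 AS1 genes and one of 200 gave 145. Head-to-head pairs numbered 126 and 129 with start sites within 500 and 2000 bases, an alternative chosen after seeing the data.

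The count of AS1 genes that varied was 22 with the statistic divided by 2 and 49 to 55 with 1 library left out (19.4% to 21.7%, against 23.8% to 32.7% of all genes tested). For the read ratio, alternatives chosen after seeing the data gave 5 and 36 to 49. Fewer libraries entered the latter, and for the former, dividing the statistic can only lower the number called. Which scale is right was not tested.

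On CPM, which is not per length, the difference changed sign in 25 of 252 pairs, and 49 AS1 genes were above, 40 of them among the 59 reported. Among the named pairs it changed sign for MNX1-AS1 (-0.31), URB1-AS1 (-2.94), KMT2E-AS1 (-3.10), OIP5-AS1 (3.29), MELTF-AS1 (-0.51), PRKAG2-AS1 (-1.99) and SLC5A4-AS1 (-0.57), so orders within a pair hold per length. With exon bases of no other gene it changed sign in 7 of 252 pairs, and 53 of the 59 stayed above; the named pairs among the 7 were PRR11-AS1 (0.37) and TTN-AS1 (0.087). A pseudocount of 1 moved 23 of 44 named pairs by more than their SD, such as FGD5-AS1 (5.56) and ZEB1-AS1 (1.81), and changed no sign among the 252. With 1 library left out it ranged from -0.195 to 0.0026 for PRR11-AS1 and from -0.17 to 0.029 for OIP5-AS1, which are near 0. With exon bases of no other gene, OIP5-AS1 was further from 0, at -0.70.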
